A study of Mus musculus with 4 samples.

Results

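The C/EBP and Krüppel-like factors that act in adipocyte differentiation were followed in brown adipose tissue (BAT) of mice bred to delete Sox4 in the Myf5 lineage and in their littermates. The set holds 10 genes, chosen by symbol: Cebpa, Cebpb, Cebpd, Cebpg, Klf4, Klf5, Klf9, Klf11, Klf13 and Klf15. Each was found on a single one of the 55387 rows of every library. RNA was sequenced from BAT of 4 male mice aged 15 weeks, with 2 mice of each genotype and 1 library per mouse. Control mice carried floxed Sox4 without Cre (Sox4f/f) and are labelled WT in the sample records. Sox4-MKO littermates carried the same floxed alleles together with Myf5-Cre, which is active in the precursors of brown adipocytes and also of skeletal muscle. All mice were housed at 22 to 24 °C, and the labels name no further treatment. The samples are labelled as adipocytes as well as BAT, but whole tissue was taken. Levels are in FPKM, which divides fragments by transcript length and library size, so that levels of different genes can be set side by side.

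Fat cell formation runs through a relay of transcription factors. In the classical scheme, C/EBPβ and C/EBPδ are induced first by cAMP and glucocorticoid signals and then switch on PPARγ and C/EBPα, which hold each other and the mature fat cell programme in place. C/EBPγ lacks a strong activation domain and forms dimers with its relatives and with ATF4. Krüppel-like factors bind GC-rich and CACCC sequences. KLF4 and KLF5 act early, upstream of or together with C/EBPβ, KLF9 and KLF15 are glucocorticoid-responsive factors of the later steps, and KLF11 has been described as a partner of PPARγ in the brown fat programme.

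Before the factors themselves, 3 features of the libraries bear on every value below. Transcripts of Sox4 reached 1.98 and 1.06 FPKM in Sox4f/f, compared with 0.981 and 3.06 FPKM under the Sox4-MKO label. Its levels overlapped between the genotypes (log2 fold change 0.20, limma adjusted p = 0.843), so the direction of each comparison rests on the labels, and Sox4-MKO below means the libraries so labelled. Depth was estimated at about 12100000 to 16200000 fragments per library. Brown adipocyte RNA was present in all 4 libraries, with Ucp1, the uncoupling protein of thermogenesis, at 1935 and 1814 FPKM in Sox4f/f. In Sox4-MKO it was at 734 and 1105 FPKM.

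The 4 libraries also differed in their markers of other cell types, as the plot of marker sums shows. The summed level of 7 brown adipocyte markers was 8099 and 7894 FPKM in Sox4f/f and 4145 and 4771 FPKM in Sox4-MKO, and 4 of the 7 were called lower. The 6 skeletal muscle markers summed to 161 and 599 FPKM in Sox4f/f but to 11740 and 2065 FPKM in Sox4-MKO, with 5 of 6 called higher. The 5 fibroblast markers (208, 252, 487 and 436 FPKM, Sox4f/f mice first) were all called higher, as were 3 of 5 macrophage markers (31.2, 47.9, 84.4 and 68.2 FPKM). Sums of the 5 markers shared by all adipocytes (8298 and 8754 against 7455 and 9963 FPKM) and of the 7 endothelial markers (160 and 245 against 121 and 189 FPKM) overlapped between the genotypes. Of the 5 shared adipocyte markers, 4 were lower, 3 without overlap, and 1 was called lower. Of the 7 endothelial markers, 0 were called. Of the 5 smooth muscle markers, 1 was called higher (sums of 65.6, 84.6, 270 and 129 FPKM). Their log2 fold changes were negative for 2 and positive for 3, with a median of 0.098 and a highest value of 2.02. The 5 granulocyte markers were scarce but higher in Sox4-MKO (sums of 2.98 and 2.11 against 4.0 and 9.94 FPKM), with 1 of the 2 tested called higher and Ly6g and Mpo at 0 in all 4 libraries, and the 4 epithelial markers together stayed at or below 0.249 FPKM, with Krt5 at 0 throughout. In Sox4-MKO mouse 1 the skeletal muscle sum exceeded the brown adipocyte sum. Of all genes tested, 8.28% were called lower and 7.95% higher in Sox4-MKO. In bulk tissue, fewer cells of a type and less RNA per cell cannot be told apart.

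**Figure D1:**
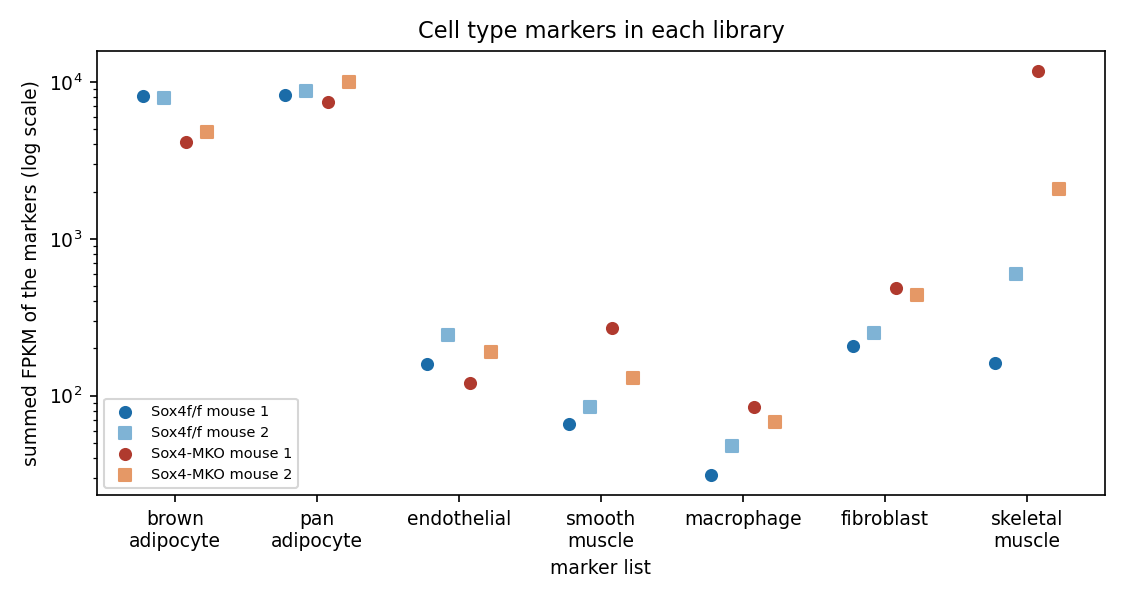
Summed FPKM (log axis) of 7 lists of cell type markers, with 1 point per library, blue for Sox4f/f and red or orange for Sox4-MKO. Skeletal muscle markers ranged from 161 FPKM in Sox4f/f mouse 1 to 11740 FPKM in Sox4-MKO mouse 1, while brown adipocyte markers were lower in both Sox4-MKO libraries.

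Within the set, the members differed far more from each other than between genotypes. In Sox4f/f the mean levels ran in the order Cebpa, Cebpb, Klf9, Cebpg, Klf4, Klf15, Klf13, Klf11, Cebpd and Klf5, from 354 down to 0.200 FPKM. Klf4 and Klf15, and Klf15 and Klf13, overlapped as neighbours in that order. In Sox4-MKO the 4 most abundant members kept their ranks, and Klf13 and Klf4 were the only neighbours that overlapped. Klf4 went from the fifth place to the seventh, and Cebpd, the ninth member in Sox4f/f, stood above Klf11 in both Sox4-MKO libraries.

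**Figure D2:**
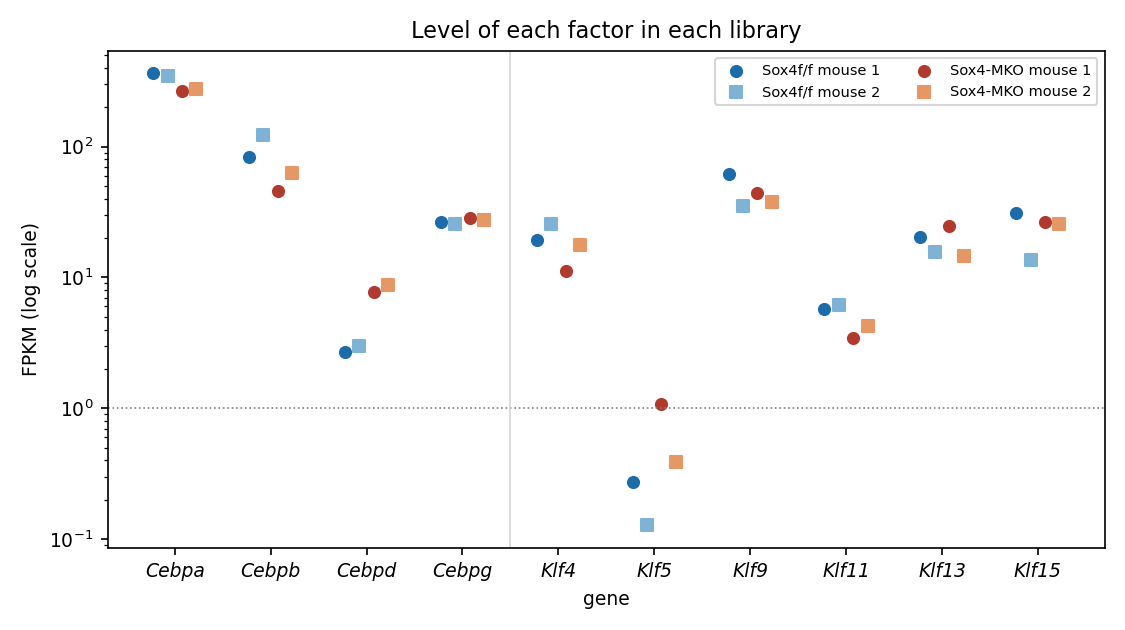
FPKM (log axis) of the 10 factors, with 1 point per library (circles and squares are mice 1 and 2, blue Sox4f/f, red and orange Sox4-MKO) and a dotted line at 1 FPKM, the filter on mean levels. Cebpd is higher in both Sox4-MKO libraries, Cebpa, Cebpb, Klf4 and Klf11 are lower in both, and Klf5 is below 1 FPKM in 3 of 4 libraries.

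The question of the comparison was which transcripts of BAT differ when Sox4 is deleted in the Myf5 lineage. Of the 10 members, 9 had a mean above 1 FPKM in at least one genotype and were tested. Cebpa, Cebpb and Klf11 fell and Cebpd rose at an unadjusted limma p under 0.05. The study used the same cutoff, but its methods name no test for the sequencing, so its calls may differ. Rose, fell and called refer to the limma threshold throughout, and adjusted p-values are given beside it. These 4 of 9 members (44.4%) stand beside 16.2% of all 12877 genes tested, of which 8.28% were lower and 7.95% higher in Sox4-MKO. The members and the gene lists below were chosen with earlier results of these data known. Their shares of calls are therefore a description and no evidence of enrichment. After Benjamini-Hochberg adjustment in limma over all genes, 0 members passed, as did 0.0% of all genes, for which the smallest adjusted p was 0.191. The median log2 fold change of the 9 members was -0.20, against -0.05 for all genes.

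Levels of 6 of the 9 did not overlap between the genotypes, 4 lower and 2 higher in Sox4-MKO. Among all genes the corresponding shares were 51.3%, with 29.6% lower and 21.7% higher. An exact permutation test on a single gene could not go below p = 0.333 here.

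**Figure D3:**
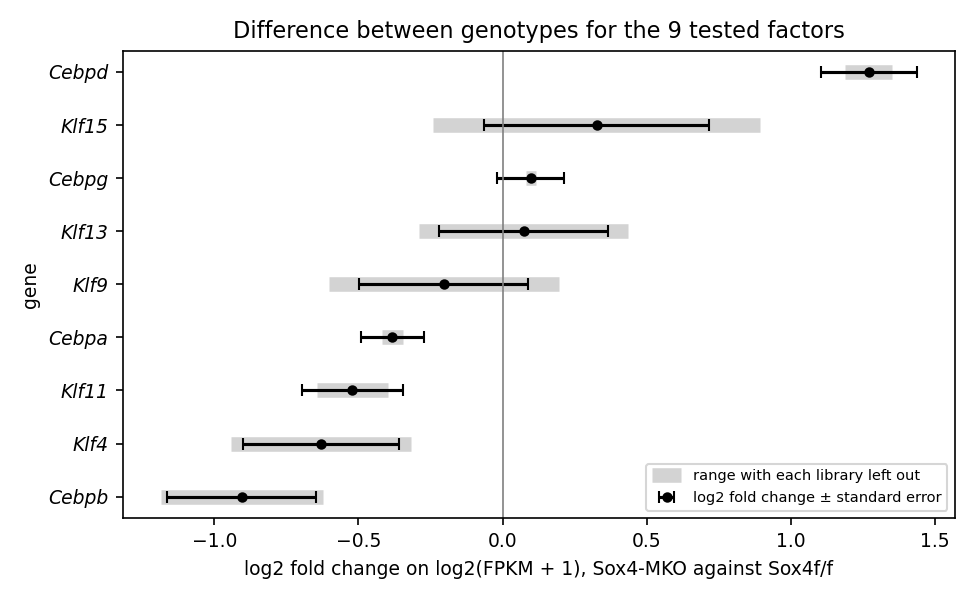
Log2 fold change of the 9 tested factors on the log2(FPKM + 1) scale, Sox4-MKO against Sox4f/f, as points with the standard error from limma, over grey bars that span the values obtained with each library left out in turn. The bars of Cebpa, Cebpb, Cebpd, Cebpg, Klf4 and Klf11 stay on one side of 0, and those of Klf9, Klf13 and Klf15 cross it.

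The promoters of the 3 members that fell are shown so that members with the same direction can be set side by side. They were taken from RefSeq (GRCm38.p6), which gives 250 bases before the start, on the plus strand and 5′ to 3′. For Klf11 only the 153 bases before the GENCODE M21 gene body are printed. Capitals mark CCAAT boxes, elements that read CACCC, GC boxes that read GGGCGG and CRE cores (of cAMP response elements) that read TGACG, and the TATA box letters TATAAA, on either strand, and adjoining matches run together. The windows are chr7:35119043-35119292 for Cebpa, chr2:167688665-167688914 for Cebpb and chr12:24651121-24651273 for Klf11.
Cebpa: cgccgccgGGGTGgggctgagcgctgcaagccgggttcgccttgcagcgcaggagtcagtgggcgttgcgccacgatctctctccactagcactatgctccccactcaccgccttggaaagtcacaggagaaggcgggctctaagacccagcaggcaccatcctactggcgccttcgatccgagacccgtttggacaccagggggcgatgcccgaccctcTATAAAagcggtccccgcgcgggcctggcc
Cebpb: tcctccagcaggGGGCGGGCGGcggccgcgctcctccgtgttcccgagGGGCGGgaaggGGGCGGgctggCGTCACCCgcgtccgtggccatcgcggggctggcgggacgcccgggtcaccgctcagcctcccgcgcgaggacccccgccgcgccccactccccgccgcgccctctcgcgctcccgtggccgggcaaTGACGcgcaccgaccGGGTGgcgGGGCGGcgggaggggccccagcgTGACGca
Klf11: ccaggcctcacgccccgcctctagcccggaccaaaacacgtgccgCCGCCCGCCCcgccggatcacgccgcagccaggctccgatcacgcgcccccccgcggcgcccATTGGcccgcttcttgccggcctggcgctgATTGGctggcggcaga

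An entry was found for 8 of the 10 members, with Cebpd and Klf5 left without one. Over the 250 bases before the start, the Cebpb promoter held 5 GC boxes, 2 CACCC elements and 3 CRE cores. Its GC content of 81.6% was above that of 99.3% of the 32851 promoters in the table, whose median was 52.4%. That of Cebpa held a TATAAA close to the start and 1 CACCC, with a GC content of 66.4%, and no GC box. The full Klf11 window held 2 CCAAT and 4 GC boxes at 76.8% GC.

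The members that did not pass had GC contents of 59.6% (Klf9) to 74.0% (Klf4), and all 8 windows were above the median of all promoters. Klf4 held 4 GC boxes and 1 CRE core, Klf9 3 CCAAT, 1 CACCC and 1 CRE core, and Cebpg 2 CCAAT. Klf13 held 2 CCAAT, 3 GC boxes, 1 CACCC and 1 CRE core. Klf15 held 1 CCAAT, 1 GC box, 1 CACCC and 2 CRE cores. Of all promoters of this length, 33.8% held CCAAT, 32.7% GGGCGG, 52.0% CACCC, 17.8% TGACG and 12.4% TATAAA. Neither the palindromic C/EBP motif TTGCGCAA (0.164% of all promoters) nor the SOX core ACAAAG (16.5%) was found in any of the 8 windows. Only these exact letters were searched, so other forms of a C/EBP or SOX site would be missed. A match of letters is a description of the window and not a bound site.

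Cebpd, which encodes the early inducer C/EBPδ, had the largest log2 fold change of the 9 tested members on the log2(FPKM + 1) scale. It lies on chromosome 16 from 15887286 to 15891031 on the plus strand of GRCm38 and has a single exon in its longest transcript (GENCODE M21). It had 2.68 and 2.99 FPKM in Sox4f/f and 7.72 and 8.78 FPKM in Sox4-MKO. Both Sox4-MKO libraries were thus well above both Sox4f/f libraries, and mice of a genotype were close together. Means were 2.83 ± 0.220 and 8.25 ± 0.744 FPKM (SD, n = 2 mice each), a ratio of 2.91, from about 135, 135, 366 and 534 fragments. The log2 fold change was 1.27 ± 0.167 (SE, limma, Benjamini-Hochberg adjusted p = 0.191). Omitting any 1 library left it between 1.19 and 1.35, past the unadjusted threshold each time.

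Spidr, a DNA repair gene on the opposite strand, overlaps Cebpd by 1808 bases, and whether the counting used strand is not given in the sources used here. Spidr itself had 2.12 and 3.17 FPKM in Sox4f/f and 2.60 and 3.18 FPKM in Sox4-MKO, levels that overlapped (log2 fold change 0.11, limma adjusted p = 0.843). Fibroblast, macrophage, granulocyte and skeletal muscle marker sums were, like Cebpd, higher in both Sox4-MKO libraries. So was the smooth muscle sum, although 2 of its 5 markers had a negative log2 fold change. The part of these cell types in the difference of Cebpd was not tested.

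The 3 genes whose pattern over the 4 libraries was nearest to that of Cebpd were Smpd3, Gda and Rrad, at root mean square distances of 0.0512, 0.0523 and 0.0753 on the centred log2 scale. Smpd3, a neutral sphingomyelinase, had 0.731 and 0.845 FPKM in Sox4f/f and 3.16 and 3.25 FPKM in Sox4-MKO. Gda, guanine deaminase, had 5.55, 6.68, 14.7 and 16.1 FPKM, and the small GTPase gene Rrad had 0.523, 0.752, 2.32 and 2.93 FPKM in the same order. With 4 points that share 4 libraries, this is a description only.

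Cebpb encodes C/EBPβ, the other early factor and an acute target of cAMP in brown fat. It is a single-exon gene on chromosome 2 from 167688915 to 167690418 on the plus strand. The gene had 83.2 and 123 FPKM in Sox4f/f and 46.0 and 62.7 FPKM in Sox4-MKO. Sox4f/f mouse 2 was the highest and Sox4-MKO mouse 1 the lowest, and the genotypes did not overlap although mice of a genotype differed by 1.48 and 1.36 times. The means were 103 ± 28.5 and 54.3 ± 11.8 FPKM (SD, n = 2), and Cebpb fell by 0.90 on the log2 scale (SE 0.258, limma, Benjamini-Hochberg adjusted p = 0.241). Without Sox4f/f mouse 2 the log2 fold change was -0.62, and without Sox4-MKO mouse 1 it was -0.68, and in both cases it missed the unadjusted threshold.

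The opposite-strand gene Tmem189 overlaps Cebpb by 908 bases and ranged only from 13.9 to 15.2 FPKM over the 4 libraries. Patterns nearest to that of Cebpb were those of Hlx, Rab17 and Trp53i11, at distances of 0.0577, 0.0625 and 0.0880. The homeobox gene Hlx had 14.6 and 23.9 FPKM in Sox4f/f and 8.57 and 10.9 FPKM in Sox4-MKO. All 3 were highest in Sox4f/f mouse 2 and lowest in Sox4-MKO mouse 1, as Cebpb was.

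Cebpa, the gene of C/EBPα and the most abundant member, was also lower in Sox4-MKO. It occupies a single exon on chromosome 7 from 35119293 to 35121928 on the plus strand. Its levels were 363 and 346 FPKM in Sox4f/f and 266 and 277 FPKM in Sox4-MKO. The genotypes were clearly apart and mice within them nearly equal. Cebpa fell by 0.38 on the log2 scale (SE 0.109, limma, Benjamini-Hochberg adjusted p = 0.241), from a mean of 354 ± 12.6 to 272 ± 7.62 FPKM (SD, n = 2). The call was lost without Sox4f/f mouse 1 (log2 fold change -0.35) or Sox4f/f mouse 2 (-0.42), although the size hardly moved. The noncoding antisense gene Gm45091, which overlaps the first 313 bases of the gene body, had 1.27 to 3.40 FPKM.

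Cebpg, on the minus strand of the same chromosome from 35046422 to 35056573 and 62720 bases away from Cebpa, showed no difference of that kind. It had 26.3 and 25.7 FPKM in Sox4f/f and 28.3 and 27.6 FPKM in Sox4-MKO. The Sox4-MKO libraries were slightly higher without overlap, but the log2 fold change of 0.10 ± 0.116 did not pass (SE, limma adjusted p = 0.697). Cebpg was the steadiest member, with the higher mouse at 1.02 and 1.03 times the lower one in the 2 genotypes.

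Because these 4 genes can pair with each other, their proportions were also compared within each library, where scaling between libraries cancels. The sum of Cebpa, Cebpb, Cebpd, Cebpg and Cebpe was 476 and 498 FPKM in Sox4f/f and 349 and 376 FPKM in Sox4-MKO. The sum leaves out Ddit3, a C/EBP relative given below. Cebpa held 76.4% and 69.4% of it in Sox4f/f and 76.4% and 73.6% in Sox4-MKO, so its share overlapped. Cebpb held 17.5% and 24.8% against 13.2% and 16.7%. Cebpd held under 1 percent of the sum in Sox4f/f (0.563% and 0.600%) and 2.22% and 2.33% in Sox4-MKO.

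The ratio of Cebpb to Cebpd, the pair of early factors, was 31.1 and 41.3 in Sox4f/f and 5.95 and 7.14 in Sox4-MKO. That of Cebpa to Cebpd was 136 and 116 against 34.5 and 31.6. Both ratios were several times lower in each Sox4-MKO library than in either Sox4f/f library. The ratio of Cebpa to Cebpb was 4.37 and 2.80 in Sox4f/f and 5.79 and 4.42 in Sox4-MKO, so that the higher Sox4f/f library and the lower Sox4-MKO library were nearly equal. These ratios use the values that gave the calls above, and with 2 mice against 2 an exact permutation test cannot go below p = 0.333.

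**Figure D4:**
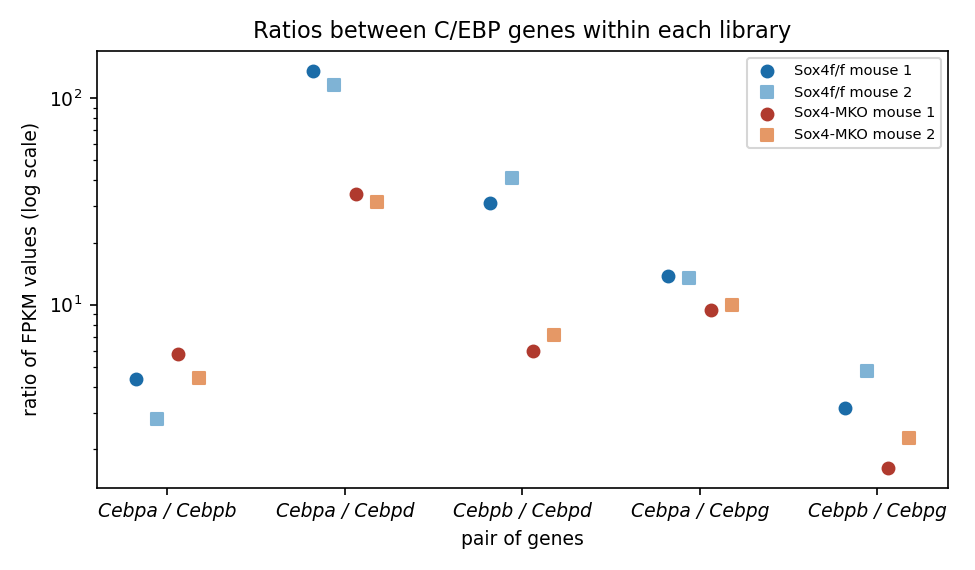
Ratios of FPKM values (log axis) between C/EBP genes in each library, with 1 point per library. The ratios to Cebpd were 31.1 to 136 in Sox4f/f and 5.95 to 34.5 in Sox4-MKO, and those with other denominators differed less.

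Among the Krüppel-like members, Klf11 passed the unadjusted threshold. KLF11 is a zinc finger factor encoded on chromosome 12 from 24651274 to 24662789 on the plus strand, with 4 exons in its longest transcript. Klf11 had 5.74 and 6.11 FPKM in Sox4f/f and 3.43 and 4.25 FPKM in Sox4-MKO. Both Sox4-MKO libraries were below both Sox4f/f libraries. Klf11 fell by 0.52 on the log2 scale (SE 0.176, limma, Benjamini-Hochberg adjusted p = 0.273), from 5.93 ± 0.264 to 3.84 ± 0.577 FPKM (SD, n = 2). The call was lost without Sox4f/f mouse 1 (-0.56), Sox4f/f mouse 2 (-0.48) or Sox4-MKO mouse 1 (-0.40), with the direction kept. Brown adipocyte marker sums were also lower in both Sox4-MKO libraries, and their part in the lower levels of Cebpa, Cebpb and Klf11 was not tested. Sox4-MKO mouse 1, with the highest skeletal muscle sum, was the lowest library for these genes and Klf4 and the highest for Klf13. The part of muscle RNA in these levels was not tested.

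Klf4, an early activator of Cebpb in cultured preadipocytes and also a factor of endothelium and macrophages, lies on the minus strand of chromosome 4 from 55527143 to 55532466. It had 19.3 and 25.7 FPKM in Sox4f/f and 11.1 and 17.7 FPKM in Sox4-MKO. The genotypes did not overlap, with Sox4-MKO mouse 1 the lowest, but the log2 fold change of -0.63 ± 0.271 did not pass (SE, limma adjusted p = 0.343). Without Sox4-MKO mouse 1 it was -0.32, and without Sox4-MKO mouse 2 it was -0.94 and passed the unadjusted threshold. The endothelial marker sum was likewise highest in Sox4f/f mouse 2 and lowest in Sox4-MKO mouse 1, and its part in the pattern of Klf4 was not tested.

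Klf5, a target of the early C/EBP factors in the adipogenic relay, was barely detected in these adult tissues. Its levels on chromosome 14, from 99298691 to 99315036 on the plus strand, were 0.271 and 0.128 FPKM in Sox4f/f and 1.08 and 0.389 FPKM in Sox4-MKO. Only Sox4-MKO mouse 1 exceeded 1 FPKM, and the 4 values rest on about 12, 5, 46 and 21 fragments. Klf5 was not tested because its means, 0.200 FPKM in Sox4f/f and 0.734 FPKM in Sox4-MKO, were below the filter of 1 FPKM. When the filter was lowered to 0.1 FPKM, its log2 fold change was 0.51 and did not pass (limma adjusted p = 0.463).

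Klf9, Klf13 and Klf15 showed overlapping genotypes. The glucocorticoid-responsive Klf9, on chromosome 19 from 23141226 to 23168134 (plus strand), had 62.1 and 35.4 FPKM in Sox4f/f and 43.9 and 37.6 FPKM in Sox4-MKO. Klf15, a regulator of amino acid and lipid use on chromosome 6 from 90462576 to 90475238 (plus strand), had 31.1 and 13.6 FPKM in Sox4f/f and 26.7 and 25.6 FPKM in Sox4-MKO. For both genes the Sox4f/f mice were the highest and the lowest of the 4, and both Sox4-MKO mice lay between them. Log2 fold changes were -0.20 ± 0.293 for Klf9 (SE, limma adjusted p = 0.75) and 0.33 ± 0.391 for Klf15 (limma adjusted p = 0.701).

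Klf15 turned on which Sox4f/f mouse was kept. Without Sox4f/f mouse 1 its log2 fold change was 0.89 and passed the unadjusted threshold, and without Sox4f/f mouse 2 it was -0.24 and did not. Klf9 went from 0.19 without Sox4f/f mouse 1, which did not pass, to -0.60 without Sox4f/f mouse 2, which did. Neither gene can be given a direction from these mice.

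Klf13, a ubiquitous member on the minus strand of chromosome 7 from 63886351 to 63938915, had 20.5 and 15.7 FPKM in Sox4f/f and 24.6 and 14.5 FPKM in Sox4-MKO. Here Sox4-MKO mouse 1 was the highest and Sox4-MKO mouse 2 the lowest of the 4 libraries. The log2 fold change was 0.07 ± 0.293 (SE, limma adjusted p = 0.915), and it turned to -0.29 without Sox4-MKO mouse 1 and to -0.11 without Sox4f/f mouse 2.

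Some classical glucocorticoid-induced genes were also unequal between mice of a genotype. Klf9 and Klf15 were 1.76 and 2.28 times as high in Sox4f/f mouse 1 as in Sox4f/f mouse 2. Between the Sox4-MKO mice the same ratios were only 1.17 and 1.04. Fkbp5, which encodes a co-chaperone of the glucocorticoid receptor, had 23.5 and 3.17 FPKM in Sox4f/f and 23.0 and 9.55 FPKM in Sox4-MKO. Zbtb16 (64.3 and 14.6 FPKM in Sox4f/f, 48.2 and 14.2 FPKM in Sox4-MKO) and the metallothionein gene Mt2 (147 and 41.9 FPKM in Sox4f/f, 90.2 and 31.3 FPKM in Sox4-MKO) were both picked after their values were seen. All 3 were higher in mouse 1 of either genotype. Across the whole list of 13 glucocorticoid-induced genes, 8 were higher in Sox4f/f mouse 1 and the others were lower. Among the lower ones, Dusp1, Errfi1 and Sgk1 had 0.589, 0.587 and 0.585 times the level of Sox4f/f mouse 2. Of 12651 tested genes above 0 in both Sox4f/f libraries, 6653 (52.6%) were higher in mouse 1. In Sox4-MKO, 7 of the 13 were higher in mouse 1.

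Between genotypes, 8 of those 13 genes were lower and 5 higher in Sox4-MKO. In each direction 1 was called (15.4% together, beside 16.2% of all genes). Pdk4, pyruvate dehydrogenase kinase, fell by 0.62 on the log2 scale (744, 701, 412 and 536 FPKM, limma adjusted p = 0.231), and Tsc22d3, also known as Gilz, rose by 0.58 (69.1, 59.5, 115 and 80.6 FPKM, limma adjusted p = 0.292). The lowest fold change was that of Cdkn1a at -1.02 (134, 152, 37.2 and 130 FPKM, limma adjusted p = 0.45) and the highest that of Fkbp5 at 0.65 (limma adjusted p = 0.75). Pdk4 missed the threshold without Sox4f/f mouse 1 (-0.58) or mouse 2 (-0.66). Tsc22d3 missed it without Sox4f/f mouse 1 (0.68), Sox4f/f mouse 2 (0.47) or Sox4-MKO mouse 1 (0.33), and Cdkn1a passed it without Sox4-MKO mouse 2 (-1.91). In these and later parentheses with 4 levels, the Sox4f/f mice come first.

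Other genes with Cebp or Klf symbols followed no common direction. Of 13 such genes, grouped by symbol alone and with Cebpz included, 8 were tested, 6 were lower and 2 higher. Among the 8, 1 was called in each direction (25.0%, beside 16.2% of all genes). Klf16 fell by 0.46 (4.34, 4.57, 3.15 and 2.79 FPKM, limma adjusted p = 0.304), and Klf12, a repressor, rose by 0.73 on the log2(FPKM + 1) scale (0.419, 0.245, 1.35 and 1.05 FPKM, limma adjusted p = 0.287). The call of Klf16 was lost with any 1 library left out (-0.53 to -0.39), and that of Klf12 without Sox4f/f mouse 2 (0.63). Klf2, a flow-responsive gene of endothelium, was abundant and had a log2 fold change of -0.60 (35.0, 64.2, 25.7 and 37.1 FPKM, limma adjusted p = 0.445) with overlapping genotypes, and it passed without Sox4f/f mouse 1 (-1.03).

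The remaining tested genes of this group lay closer to 0 and did not pass. Log2 fold changes were -0.39 for Cebpz, -0.27 for Klf3, -0.14 for Klf7, -0.09 for Klf6 and 0.07 for Klf10, with limma adjusted p-values of 0.343 to 0.923. Cebpe, Klf1, Klf8, Klf14 and Klf17 were below the filter, and Klf17 was listed at 0 in every library. Over 17 Klf genes the summed level was 239 and 220 FPKM in Sox4f/f and 200 and 187 FPKM in Sox4-MKO. Klf9 held 26.0% and 16.1% of this sum in Sox4f/f and 22.0% and 20.0% in Sox4-MKO, while Klf2 held 14.7% and 29.2% against 12.9% and 19.8%.

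Partners and modulators of C/EBP proteins were compared next. All 8 tested genes of this list had a negative log2 fold change, with a median of -0.50, although that of Creb1 (-0.02) turned positive at 0.05 when libraries were scaled to a common sum without mitochondrially encoded genes and Ucp1. Of all genes tested, 56.0% had a negative log2 fold change. Among the 8, 2 were called lower (25.0%, beside 16.2% of all genes in either direction), and 3 overlapped between the genotypes. Atf4, the stress-responsive factor that dimerizes with C/EBPγ and C/EBPβ, had 98.4 and 104 FPKM in Sox4f/f and 69.2 and 69.8 FPKM in Sox4-MKO. It fell by 0.54 (SE 0.109, limma, Benjamini-Hochberg adjusted p = 0.207), with the mice of a genotype nearly equal. Ddit3, which encodes CHOP, an inhibitory C/EBP relative, fell by 0.74 (43.9, 29.7, 24.7 and 18.3 FPKM, limma adjusted p = 0.275), but missed the threshold without Sox4f/f mouse 1 (-0.47) or Sox4-MKO mouse 2 (-0.53).

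Atf5, an activator of Cebpb in differentiating fat cells, had a log2 fold change of -0.50 (87.8, 114, 61.7 and 80.9 FPKM, limma adjusted p = 0.333). Trib3, one of the Tribbles pseudokinases that bind C/EBP factors and ATF4, was at -0.95 (6.28, 2.43, 1.84 and 1.36 FPKM, limma adjusted p = 0.345). Levels of Atf5 and Trib3 did not overlap between the genotypes, but neither gene passed with all 4 libraries. Atf5 passed without Sox4-MKO mouse 2 (-0.69) and Trib3 without Sox4f/f mouse 2 (-1.49). The log2 fold changes of Trib1 (-0.50), Nfil3 (-0.34) and Trib2 (-0.19) had limma adjusted p-values of 0.594 to 0.600. Trib1 passed without Sox4f/f mouse 2 (-1.12) and Nfil3 without Sox4-MKO mouse 2 (-0.74).

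Other genes of the adipogenic relay moved in both directions. Of 17 listed, 14 were tested, 8 were lower and 6 higher. Calls numbered 4 (28.6%, beside 16.2% of all genes), 1 lower and 3 higher. Ebf2, a selector of brown fat identity, fell by 0.50 (24.4, 25.6, 17.1 and 17.8 FPKM, limma adjusted p = 0.219). Zfp423, a factor of white fat precursors, rose by 0.52 (3.01, 3.57, 5.42 and 4.86 FPKM, limma adjusted p = 0.273), and Rxra, which encodes the partner of PPARγ, rose by 0.49 (18.9, 20.4, 28.3 and 27.5 FPKM, limma adjusted p = 0.223). Gata2, a brake on adipogenesis, had the lowest log2 fold change of the list, -0.50, and did not pass (limma adjusted p = 0.479), except without Sox4-MKO mouse 2 (-0.89) among the fits with a library left out. The third higher call, named after its value was seen, was Srebf1. Zfp423 lost its call with any 1 library left out (0.43 to 0.62), Ebf2 without Sox4f/f mouse 1 (-0.53) or mouse 2 (-0.46), and Rxra without Sox4f/f mouse 1 (0.43).

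Genes of the mature fat cell that C/EBPα and PPARγ are known to act on were lower for 9 and higher for 9 of 18. In each direction 2 were called (22.2% together, beside 16.2% of all genes). The lower calls, named after their values were seen, were Pck1 and Lipe. Resistin (Retn) rose by 1.91 on the log2 scale (137, 111, 425 and 510 FPKM, limma, Benjamini-Hochberg adjusted p = 0.191). Leptin (Lep) rose by 1.36 (11.8, 21.5, 47.4 and 38.4 FPKM, limma adjusted p = 0.214). These hormone genes are typical of white fat. Scd1 and Fasn, both lipid synthesis genes, were listed at 0 FPKM in 3 of the 4 libraries, which without counts may be a failed estimate rather than absent expression. In Sox4f/f mouse 1 they were listed at 4491 FPKM and 652 FPKM, and no fold is given for them. Without these genes, a choice made after seeing the data, 7 were lower and 9 higher. Lep missed the threshold without Sox4-MKO mouse 1 (log2 fold change 1.21).

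Immediate early genes, which share with Cebpb a rapid response to cAMP and growth signals, were lower for 9 of 11, with 2 called (18.2%), where 56.0% of all genes were lower and 16.2% called. Fosb fell by 0.99 (1.23, 1.61, 0.230 and 0.205 FPKM, limma adjusted p = 0.224) and Ier2 by 0.85 (18.4, 17.9, 10.5 and 8.85 FPKM, limma adjusted p = 0.196). Fos itself, low in all mice, had a log2 fold change of 0.21 (1.13, 1.25, 1.74 and 1.35 FPKM, limma adjusted p = 0.666). The nuclear receptor gene Nr4a1 had the highest of the list at 0.37 (10.3, 35.7, 18.7 and 33.8 FPKM, limma adjusted p = 0.793).

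Amino acid genes known as KLF15 targets gave 3 calls among 9 tested (33.3%, beside 16.2% of all genes). The branched-chain ketoacid dehydrogenase subunits Bckdha and Bckdhb fell by 0.66 (236, 235, 147 and 150 FPKM, limma adjusted p = 0.196) and 0.44 (125, 105, 89.4 and 78.6 FPKM, limma adjusted p = 0.268). The aspartate aminotransferase gene Got1 rose by 1.60 (11.3, 11.9, 58.4 and 23.6 FPKM, limma adjusted p = 0.231), and it was highest in the library with the highest muscle marker sum, whose part in this difference was not tested. Bckdhb missed the threshold without Sox4f/f mouse 1 (-0.32) or Sox4-MKO mouse 2 (-0.35), and Got1 without Sox4f/f mouse 1 (1.57) or mouse 2 (1.64). Glutamine synthetase (Glul) was at 0.20 (limma adjusted p = 0.647). Klf15 itself, as given above, had no settled direction.

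Acute-phase genes, classical targets of C/EBPβ and C/EBPδ in inflammation, gave 2 higher calls among 7 tested (28.6%). Of all genes, 16.2% were called in either direction. Orm1, orosomucoid, rose by 1.35 on the log2 scale (73.2, 58.8, 160 and 177 FPKM, limma, Benjamini-Hochberg adjusted p = 0.191). Saa3, a serum amyloid gene, was listed at 0 in both Sox4f/f libraries and at 1.11 and 1.28 FPKM in Sox4-MKO (limma adjusted p = 0.214). Ccl2 and Stat3 had the lowest log2 fold changes of the list, -0.19 and -0.10 (limma adjusted p = 0.75 and limma adjusted p = 0.807).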

How the data were processed

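BAT of 4 male mice aged 15 weeks was analysed, with 2 libraries per genotype grouped by the labels. The authors deposited 1 FPKM value per gene and library. The submitters' processing notes name Cufflinks 2.1.1, Cuffdiff and mm10, while the aligner, the annotation and the use of strand are not given in the sources used here. The labels describe a column kit and a stranded mRNA library, and the methods describe TRIzol and TruSeq. No counts were used, so depth was estimated from the smallest nonzero FPKM of 6742 single-transcript genes of at least 1500 nt, and the fragment numbers are approximate.

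Genes with a mean above 1 FPKM in at least one genotype (12877) were fitted with limma 3.58.1 in R 4.3.3 on log2(FPKM + 1), a scale that understates changes of low genes. Genotype was the only term, the prior was trended, tests were two-sided, and Benjamini-Hochberg adjustment covered all tested genes. A gene is called at an unadjusted p under 0.05. p-values measure the spread between single mice. Fits were tested on simulated data. Members, gene lists and tests were chosen with earlier results of these data known. Named genes are the members, all other tested Cebp and Klf genes and the tested C/EBP partners. They also include the extremes of each functional list and the nearest patterns to Cebpd and Cebpb. A few more were named after their values were seen, as stated where they appear. For Srebf1, Pck1 and Lipe among them, no levels and no fits with a library left out are given. Marker lists are given as sums. Positions and lengths are those of GENCODE M21, with 53288 of 55287 symbols matched in a gene name table. Alternatives were a replicate block, omitting each library, 3 scalings, 3 filters, 2 pseudocounts, 2 forms of moderation, and a correction for GC content and length.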

Additional observations from a re-analysis of the deposited data

How the results depend on the processing

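With 2 mice per genotype, values below about 1 FPKM rest on few fragments and unadjusted calls near the threshold shift easily. Cebpd was called in every alternative run. Members called numbered 4, and 3 with quantile normalization, a filter of 5 FPKM or no filter. They numbered 2 with scaling to a common sum without mitochondrially encoded genes and Ucp1, with no moderation, or with the GC content and length correction. The number also changed when single libraries were left out. The members' median log2 fold change was -0.065 with a filter of 0.1 FPKM or no filter, both of which add Klf5, and -0.419 to 0.113 with each library left out, turning positive without Sox4f/f mouse 1. Calls among the other C/EBP and Klf genes numbered 2 (Klf12, Klf16), and 1 with the replicate block (Klf2, neither of the former), quantile normalization, the common sum, a filter of 0.1 FPKM, no filter or a pseudocount of 0.1, 0 with a filter of 5 FPKM, which leaves fewer genes, and 0 to 2 with each library left out. Over all genes, 813 to 2258 were called with each library left out (813 without Sox4f/f mouse 1, 1063 without Sox4f/f mouse 2), and 0 to 4 after adjustment. Unless stated, the cause was not tested.

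Replicate numbers were not taken as pairs of mice in the main fit. Over the 12877 tested genes, deviations of same-numbered libraries had a correlation of -0.0122. This value cannot exclude a pairing that affects only some genes. With the replicate block 4 members were called, 1908 genes in all and 0 after adjustment. Cebpa did not pass and Klf4 did. Klf12 and Klf16 both lost their calls, Klf2 gained one, Zfp423 lost its call, and Atf5, Trib3, Gata2 and Mt2 passed. The higher mouse had the same number in both genotypes for 9 of 10 members and for 51.0% of all genes.

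Among other settings, Cebpa missed the threshold with quantile normalization, the common sum and the GC and length correction, Cebpb with no moderation and the same correction, and Klf11 with the common sum, a filter of 5 FPKM, no filter and no moderation. Beyond the block and omitted libraries, Klf12 lost its call with quantile normalization and a pseudocount of 0.1, Klf16 with the common sum, a filter of 0.1 FPKM and no filter, and Zfp423 with quantile normalization, a filter of 5 FPKM and no filter, while Trib3 passed with quantile normalization. With no moderation, Ddit3, Lep, Got1, Pdk4, Tsc22d3 and Bckdhb lost their calls as well. Pdk4 also lost its call with quantile normalization, and Tsc22d3 and Bckdhb theirs with a prior that was not trended. Leaving out the target genes listed at 0, added after seeing the data, left 4 calls among the adipocyte targets. No scaling turned the direction of a member. Creb1 turned to 0.05 with the common sum and Spidr to -0.05 with quantile normalization. With each library left out, log2 fold changes crossed 0 for Klf9 (-0.60 to 0.19), Klf13 (-0.29 to 0.44), Klf15 (-0.24 to 0.89), Klf3 (-0.57 to 0.03), Klf6 (-0.18 to 0.01), Klf7 (-0.34 to 0.06), Klf10 (-0.33 to 0.46), Creb1 (-0.11 to 0.08), Nfil3 (-0.74 to 0.05), Trib1 (-1.12 to 0.12), Sox4 (-0.32 to 0.71), Spidr (-0.10 to 0.32), Fkbp5 (-0.62 to 1.93), Zbtb16 (-1.25 to 0.81), Mt2 (-1.44 to 0.34), Nr4a1 (-0.48 to 1.22), Glul (-0.06 to 0.46), Ccl2 (-0.48 to 0.10) and Stat3 (-0.27 to 0.07).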
